A study of Mus musculus with 16 samples.

Results

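The 33 genes described here are a set of mouse astrocyte genes: 3 markers of cell identity (Gfap, S100b and Sox9), 8 channels and transporters of the membrane, 6 surface proteins, 9 secreted proteins and 7 enzymes or metabolic regulators. They were picked by gene symbol, and all 33 were found in both deposited tables, among 18268 genes that the tables share. Poly(A) RNA was sequenced from the dissected medial prefrontal cortex of male ICR mice, an outbred stock with no engineered allele given in the labels. PNS mice were born to dams stressed during pregnancy (prenatal stress), and Ctrl mice to unstressed dams. Each condition was sampled on postnatal day 1 (P1) and day 14 (P14), 4 libraries a group and 16 in all. The labels used here give neither the form nor the days of the stress, nor whether libraries came from separate litters, so p-values cover only the spread between these samples.

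Astrocytes are the star-shaped glia that take up glutamate and potassium, supply neurons with lactate and lipids, line blood vessels with water-channel-bearing endfeet and release factors that help synapses form. In rodent cortex they arise from radial glia around birth, multiply locally in the first weeks after birth and mature while synapses are being formed. Signals through JAK and STAT proteins, Notch receptors and nuclear factor I proteins are known to start this programme, and Sox9 is a transcription factor of glial precursors as well as of astrocytes. Bulk tissue was measured, so fewer astrocytes and less RNA in each astrocyte cannot be told apart. RNA of the same genes from other cells cannot be told apart from either.

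Recovered read totals were 34 to 58.8 M per library at P1 and 15.1 to 73.0 M at P14. The weakest member, Atp13a4, still had 17 reads in its poorest P1 library and 76 in its poorest P14 library, and every other member had more. All 12 neuronal markers were listed at both ages with none at 0 throughout a group, and so were all 12 radial glia markers. At P1 genes of the neighbouring olfactory bulb and of its ensheathing glia stood apart between libraries. The olfactory bulb score, the mean log2 deviation of 15 genes from their mean over the 8 libraries, was 1.14, 1.92 and 1.48 in PNS libraries 1 to 3 and -1.26 in PNS library 4, against 0.06, -1.26, -0.85 and -1.24 in Ctrl libraries 1 to 4. At P1 none of the 15 was at 0 throughout a group, and their summed level spanned 73499 to 86354 normalized counts in Ctrl and 77046 to 100578 in PNS. That sum is weighted to strong genes such as Islr2 and Olfm1, at 1115 and 402 CPM (counts scaled to library size) in Ctrl. Of the 15 log2 differences 14 were positive and 1 negative, with a median of 1.56 and 0 calls by limma. Doc2g stood at 25.4 ± 17.7 normalized counts in Ctrl and 88.7 ± 48.1 in PNS (SD), and Shisa3 at 31.3 ± 20.8 and 162 ± 105. For the members named at P1, differences are also given without PNS libraries 2 and 3, the 2 with the highest scores. Removing library 1 as well would leave 1 PNS library and was not run. At P14 the olfactory bulb scores went the other way. They were -0.13, 0.80, 0.998 and -0.28 in Ctrl libraries 1 to 4 and -0.43, -0.33, -0.37 and -0.26 in PNS. Of the 15 genes 1 was at 0 throughout PNS at P14. Of the 12 tested there 8 log2 differences were negative and 4 positive, with a median of -0.44 and 0 calls by limma.

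The first comparison asked how the astrocyte genes changed between P1 and P14. Most of them rose: in Ctrl 29 of 33 were higher at P14 and 0 were lower (edgeR quasi-likelihood test, adjusted p below 0.05, 16 libraries), where 34.8% of all 17139 genes tested were higher and 36.4% lower. At least a 2-fold rise was called for 25 of the 33, against 15.9% of all genes. In PNS the numbers were again 29 higher and 0 lower, against 34.3% and 38.0% of all genes. The median log2 change of the members was 1.83 in Ctrl and 1.63 in PNS, where the median over all genes was -0.04 and -0.07. The 4 Ctrl members that did not pass were Sox9, Aldh1l1, Dbi and Mfge8. The 2 age tables were scaled separately before deposit, so these changes rest on reads scaled together. On the deposited values as they stand the median gene shifted by -0.63 in Ctrl, the split of all called genes moved from 5970 higher and 6237 lower to 2601 and 10184, and 25 members were higher and 6 lower in each condition.

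**Figure D1:**
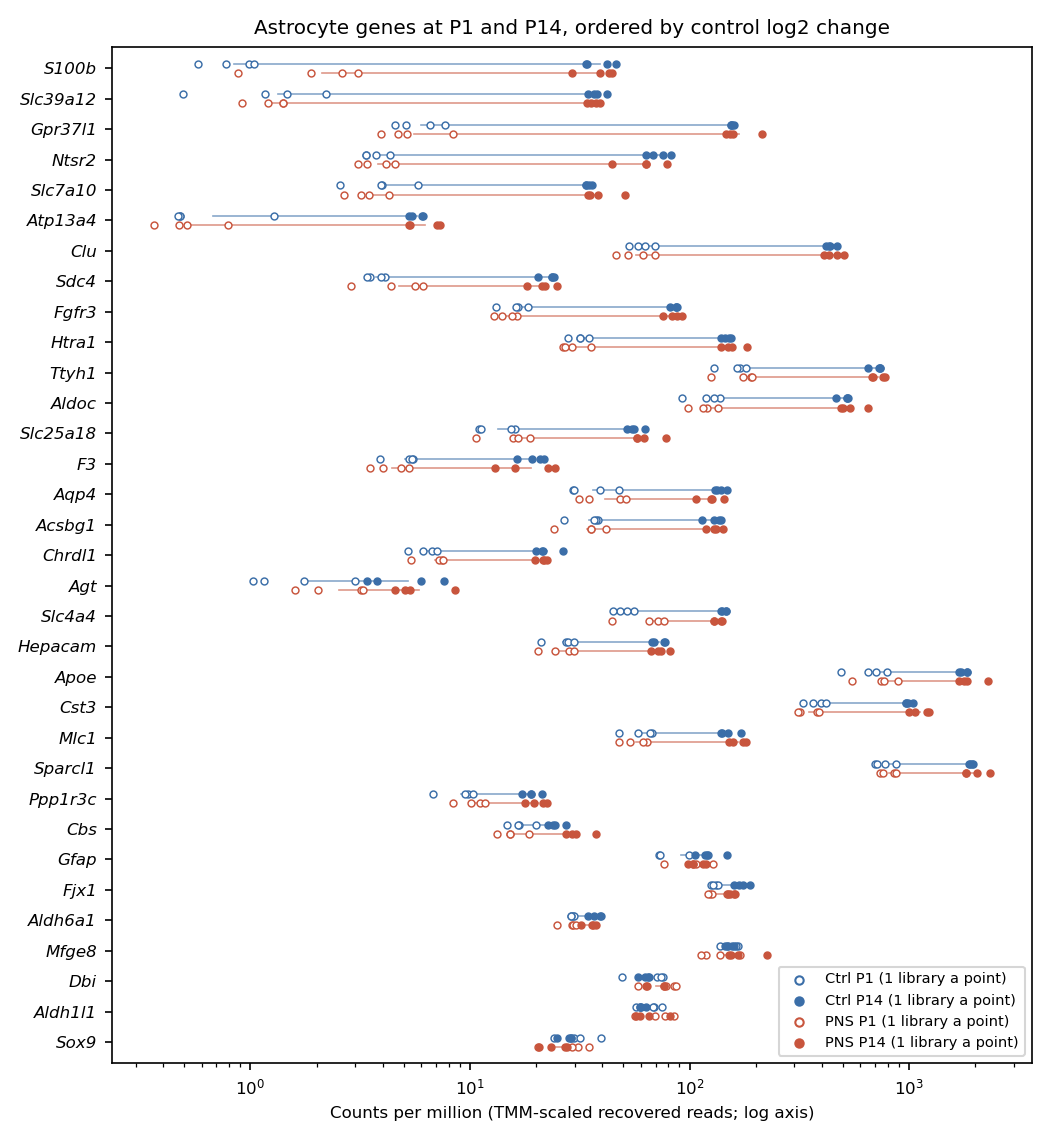
Counts scaled to library size (CPM, log axis) of each of the 33 genes, with open points for P1 libraries, filled points for P14 libraries, Ctrl in blue and PNS in red; a line joins the group means, and genes are ordered by the Ctrl change. The filled points lie to the right of the open points for most genes, by the widest margin for S100b at the top, and the points intermix for Dbi, Aldh1l1 and Sox9 at the bottom.

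The largest rises in Ctrl were those of S100b, Slc39a12, Gpr37l1 and Ntsr2. The stretch around the transcription start of each is shown because these genes had the largest folds, and that of Aldh1l1 is shown beside them as a widely used astrocyte marker whose change did not pass. The sequences are RefSeq windows of build GRCm38.p6, from 250 bases before to 50 bases after the start, and capitals mark a match to either of the motifs described after them. S100b lies at chr10:76253586-76253885 on the plus strand, Slc39a12 at chr2:14388148-14388447 on the plus strand and Gpr37l1 at chr1:135167632-135167931 on the minus strand. Ntsr2 lies at chr12:16653220-16653519 and Aldh1l1 at chr6:90550543-90550842, both on the plus strand.
S100b: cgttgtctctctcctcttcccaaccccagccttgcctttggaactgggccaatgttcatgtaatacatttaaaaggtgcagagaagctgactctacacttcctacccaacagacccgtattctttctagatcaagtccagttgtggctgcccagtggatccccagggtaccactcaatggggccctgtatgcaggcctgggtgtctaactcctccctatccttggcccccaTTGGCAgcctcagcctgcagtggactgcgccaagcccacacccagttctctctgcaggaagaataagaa
Slc39a12: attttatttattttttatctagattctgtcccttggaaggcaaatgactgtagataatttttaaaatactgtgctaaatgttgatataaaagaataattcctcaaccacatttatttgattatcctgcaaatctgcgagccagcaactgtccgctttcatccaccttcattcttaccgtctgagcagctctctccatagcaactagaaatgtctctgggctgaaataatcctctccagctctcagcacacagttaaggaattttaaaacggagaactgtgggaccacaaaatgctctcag
Gpr37l1: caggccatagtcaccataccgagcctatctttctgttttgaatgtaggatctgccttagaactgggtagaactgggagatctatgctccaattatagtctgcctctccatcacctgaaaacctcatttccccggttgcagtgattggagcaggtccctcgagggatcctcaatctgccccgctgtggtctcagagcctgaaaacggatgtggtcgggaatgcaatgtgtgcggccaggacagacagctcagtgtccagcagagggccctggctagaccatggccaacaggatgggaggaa
Ntsr2: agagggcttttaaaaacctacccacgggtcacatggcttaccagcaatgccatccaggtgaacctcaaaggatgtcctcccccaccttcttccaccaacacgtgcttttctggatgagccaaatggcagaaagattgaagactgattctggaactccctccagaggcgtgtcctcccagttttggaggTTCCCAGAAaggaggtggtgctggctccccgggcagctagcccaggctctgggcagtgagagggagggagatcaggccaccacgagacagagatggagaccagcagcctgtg
Aldh1l1: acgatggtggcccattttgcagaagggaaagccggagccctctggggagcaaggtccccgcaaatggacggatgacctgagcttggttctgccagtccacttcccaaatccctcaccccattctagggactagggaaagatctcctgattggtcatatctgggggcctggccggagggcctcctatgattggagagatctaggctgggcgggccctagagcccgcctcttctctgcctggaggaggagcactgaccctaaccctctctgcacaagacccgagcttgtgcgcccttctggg

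Both strands were searched for the short NFI motif TTGGCA, for the NFI palindrome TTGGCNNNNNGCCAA, which contains the short motif where its first free base is A or its last is T, and for the STAT motif TTCNNNGAA, which reads the same on both strands. The S100b window holds a short NFI motif that starts at -19 from the transcription start, and the Ntsr2 window holds a STAT motif at -62. The windows of Slc39a12, Gpr37l1 and Aldh1l1 hold neither. RefSeq windows were found for 27 of the 33 members, 35 windows in all. The short NFI motif was in 17.1% of them and in 14.1% of all 32851 windows, and the STAT motif in 14.3% against 8.30%. The palindrome was in 0 of the 35 and in 0.0365% of all windows. These matches describe the letters of the windows and say nothing about binding or about the rise.

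S100b, which encodes a small calcium-binding protein released by astrocytes and also made by oligodendrocyte precursors and olfactory ensheathing cells, was at a low level at P1. In counts scaled to library size (CPM), its level in Ctrl was 0.990, 1.04, 0.773 and 0.577 at P1 and 33.8, 46.4, 42.0 and 34.3 at P14. In PNS it was 2.62, 3.09, 1.89 and 0.881 at P1 and 42.8, 39.1, 44.3 and 29.3 at P14. Every P14 library of either condition lay far above every P1 library. The log2 change was 5.49 in Ctrl (adjusted p = 3.5e-11) and 4.21 in PNS (adjusted p = 2.4e-10).

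Slc39a12, a zinc importer of the plasma membrane, was also at a low level at P1. Ctrl libraries gave 1.16, 1.46, 2.21 and 0.495 CPM at P1 and 34.6, 41.9, 38.1 and 36.6 at P14, and PNS libraries gave 1.41, 1.20, 1.41 and 0.913 at P1 and 37.3, 39.0, 34.3 and 35.5 at P14. The ages did not overlap and the P14 libraries of both conditions were interleaved, with log2 changes of 4.82 in Ctrl (adjusted p = 8.7e-12) and 4.89 in PNS (adjusted p = 6.8e-12) by edgeR.

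Gpr37l1 is an orphan G protein-coupled receptor of astrocytes. It went from 5.14, 7.73, 6.58 and 4.54 CPM in the Ctrl P1 libraries to 159, 155, 157 and 154 at P14, a log2 change of 4.70 (adjusted p = 4.3e-12). The PNS libraries held 8.38, 4.69, 5.18 and 3.95 at P1 and 146, 153, 158 and 215 at P14, a log2 change of 4.92 (adjusted p = 2.6e-12). The Ctrl P14 libraries were almost equal, and PNS library 4 stood above all others at P14.

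Ntsr2, a neurotensin receptor, was at 3.35, 4.33, 3.73 and 3.35 CPM in Ctrl at P1 and at 63.0, 75.4, 82.4 and 68.3 at P14, a log2 change of 4.28 (adjusted p = 9.1e-13). PNS libraries held 4.57, 3.09, 3.38 and 4.15 at P1 and 63.0, 79.3, 63.3 and 44.4 at P14, a log2 change of 4.04 (adjusted p = 1.5e-12). Here PNS library 4 was the lowest of the 8 at P14, the opposite of its place for Gpr37l1.

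The identity markers gave unlike values. Gfap, the intermediate filament protein of mature and reactive astrocytes, was at 72.3, 122, 99.3 and 73.6 CPM in the Ctrl P1 libraries and at 118, 120, 148 and 106 at P14. The ages overlap, and the log2 change of 0.42 passed narrowly (adjusted p = 0.030). It missed the threshold without Ctrl P1 library 1, without Ctrl P1 library 4 and without Ctrl P14 library 3, with log2 changes of 0.32, 0.33 and 0.32. In PNS, Gfap held 107, 76.9, 127 and 104 CPM at P1 and 98.0, 115, 104 and 119 at P14, with a log2 change of 0.07 that did not pass (adjusted p = 0.71). The 2 changes were not shown to differ: their difference was -0.34 ± 0.23 (log2, SE, 16 libraries, limma adjusted p = 0.85).

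Sox9 held 39.3, 29.8, 31.6 and 24.2 CPM in Ctrl at P1 and 28.3, 24.9, 28.9 and 28.9 at P14, a log2 difference of -0.17 that did not pass (adjusted p = 0.32). Its PNS libraries held 30.9, 29.1, 34.9 and 20.5 at P1 and 20.5, 23.5, 27.1 and 27.8 at P14, with a log2 difference of -0.22 (adjusted p = 0.20). The ages overlapped in both conditions. Without PNS P1 library 4, the lowest of its group, the PNS difference was -0.36 and passed (adjusted p = 0.027).

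All 8 transport genes rose in both conditions, with log2 changes of 1.33 to 4.82 in Ctrl and 1.06 to 4.89 in PNS. Aqp4, the water channel of astrocyte endfeet, went from 29.6, 47.5, 39.0 and 29.6 CPM in Ctrl P1 libraries to 130, 139, 134 and 149 at P14, a log2 change of 1.92 (adjusted p = 1.4e-08). The PNS libraries held 48.1, 31.4, 51.3 and 34.8 at P1 and 107, 125, 126 and 144 at P14, with a log2 change of 1.60 (adjusted p = 1.2e-07). The ages were well apart in both conditions.

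Other transport genes in Ctrl were Slc7a10, a carrier of small neutral amino acids such as serine, which went from 4.06 ± 1.33 to 34.6 ± 1.0 CPM (SD, n = 4), and Atp13a4, a P-type ATPase, which went from 0.68 ± 0.40 to 5.73 ± 0.42. Slc25a18, a mitochondrial glutamate carrier, went from 13.4 ± 2.7 to 56.3 ± 4.4. Ttyh1, a membrane protein of the tweety family, went from 161 ± 22 to 715 ± 43. The sodium bicarbonate cotransporter Slc4a4 and Mlc1, whose human counterpart is mutated in a leukoencephalopathy with brain swelling, had the smallest rises of the group, from 50.3 ± 4.8 to 143 ± 4 and from 59.9 ± 9.2 to 150 ± 15. Exons of Slc7a10, Slc25a18 and Ttyh1 overlap those of genes on the other strand for 377, 32 and 424 bases, and the labels do not give the strand of the counting.

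All 6 surface genes rose as well, with log2 changes from 1.45 to 4.70 in Ctrl. Beside Gpr37l1 and Ntsr2 they were the growth factor receptor Fgfr3 (16.1 ± 2.2 to 85.4 ± 2.9 CPM), the heparan sulfate proteoglycan Sdc4 (3.73 ± 0.34 to 22.9 ± 1.7) and tissue factor, F3, which starts coagulation (5.04 ± 0.77 to 19.5 ± 2.4). Hepacam, the adhesion molecule that binds Mlc1 at astrocyte junctions, went from 26.5 ± 3.8 to 72.6 ± 5.2 and had the smallest change of the 6. Exons of Fgfr3 share 998 bases with a gene of unclear status on the other strand.

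Of the 9 secreted proteins 8 rose in Ctrl. Clusterin (Clu), an extracellular chaperone, had the largest change, from 61.0 ± 7.1 to 440.2 ± 21.8 CPM (log2 2.85), followed by the serine protease Htra1, from 31.5 ± 2.9 to 147 ± 7 (log2 2.22). Chrdl1, an inhibitor of bone morphogenetic proteins that astrocytes use to mature synapses, went from 6.28 ± 0.82 to 22.3 ± 2.8. Agt, the precursor of angiotensins, went from 1.73 ± 0.90 to 5.19 ± 1.97, the widest relative spread of any member in Ctrl at P14. Fjx1, a Golgi kinase that is also released, rose by only 0.41 on the log2 scale, from 130 ± 5 to 172 ± 13.

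Mfge8, which bridges dying cells or debris to phagocytes, was the exception among the secreted proteins. In Ctrl it held 166, 163, 150.1 and 138 CPM at P1 and 149, 145, 160.1 and 156 at P14, with a log2 difference of -0.02 (adjusted p = 0.90). In PNS it held 169, 119, 138 and 112 at P1 and 151, 154, 166 and 225 at P14, and the log2 change of 0.37 passed (adjusted p = 0.016). The ages overlapped in both conditions, and the difference between the 2 changes, 0.40 ± 0.18 (log2, SE), did not pass (limma adjusted p = 0.82).

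Apoe, Cst3 and Sparcl1 dominated the set at both ages. Apoe carries lipids to neurons, Cst3 (cystatin C) inhibits cysteine proteases and Sparcl1 (hevin) promotes excitatory synapses. Per kilobase of exon, they stood at 308, 299 and 261 CPM in Ctrl at P1 and at 831, 785 and 652 at P14. They made up 25.6%, 24.8% and 21.6% of the summed level of the 33 genes at P1, and 25.4%, 24.0% and 19.9% at P14. These are levels in bulk tissue, and the part of cells other than astrocytes in them was not tested. The order of the other genes changed more. Per kilobase, Gpr37l1 went from rank 22 to rank 7 of 33 and S100b from 31 to 16, whereas Aldh1l1 went from 12 to 21, Sox9 from 16 to 28 and Dbi from 4 to 11.

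Of the 7 metabolic genes 5 rose. The glycolytic enzyme Aldoc was at 138, 129, 118 and 92.9 CPM in Ctrl P1 libraries and at 525, 519.8, 524 and 465 at P14, a log2 change of 2.09 (adjusted p = 1.0e-10). Its PNS libraries held 135, 119.9, 116 and 98.5 at P1 and 536, 502, 489 and 653 at P14, a log2 change of 2.22 (adjusted p = 5.4e-11). The lowest P14 library was well above the highest P1 library in both conditions. Acsbg1, which activates long fatty acids, rose by 1.90 on the log2 scale in Ctrl and Ppp1r3c, which targets a phosphatase to glycogen, by 1.06. Cbs, which makes cystathionine from homocysteine, rose by 0.53 in Ctrl and 0.996 in PNS, and Aldh6a1, an enzyme of valine breakdown, by 0.35 and 0.31. Exons of Aldh6a1 overlap Bbof1 on the other strand for 1078 bases.

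Aldh1l1, a folate enzyme used widely as a pan-astrocyte marker, did not pass the test. Its Ctrl libraries held 68.6, 74.8, 68.2 and 57.3 CPM at P1 and 59.7, 59.2, 60.1 and 63.2 at P14, with a log2 difference of -0.15 (adjusted p = 0.27). In PNS they held 77.5, 69.7, 84.6 and 56.3 at P1 and 57.1, 65.2, 59.3 and 81.8 at P14 (log2 -0.13, adjusted p = 0.34). The ages overlapped in both conditions. Its exons share 604 bases with a lincRNA on the same strand and an antisense gene. Dbi, an acyl-CoA-binding protein whose fragments act on GABA-A receptors, held 67.6 ± 12.3 in Ctrl at P1 and 62.6 ± 3.3 at P14 (log2 -0.11, adjusted p = 0.47).

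Other astrocyte genes were read from lists outside the 33. Of 28 further astrocyte markers tested, 24 rose in each condition, 1 fell in Ctrl and 4 fell in PNS. Over all genes 34.8% rose and 36.4% fell in Ctrl, and 34.3% rose and 38.0% fell in PNS. The median log2 change of the 28 was 1.83 in Ctrl and 1.67 in PNS, and limma called 0 of them for the difference between the 2 changes. The glutamate transporter Slc1a2 went from 162 ± 16 to 2297 ± 44 CPM in Ctrl (log2 3.82, adjusted p = 5.5e-14), a change between those of Ntsr2 and Slc7a10. Glutamine synthetase (Glul) went from 375 ± 19 to 1254 ± 18, and Acot11, a thioesterase, from 5.35 ± 0.38 to 26.0 ± 1.8. Tenascin C (Tnc), a matrix protein of immature astrocytes and progenitors, fell from 176 ± 20 to 26.8 ± 4.3. Of 26 genes of astrocyte formation tested in Ctrl 15 fell and 8 rose, beside 36.4% lower and 34.8% higher over all genes, and their median log2 change was -0.71 beside -0.04 over all genes. Nfib fell from 313 ± 21 to 74.2 ± 5.5 and Nfia from 96.6 ± 8.8 to 35.6 ± 3.6, both being nuclear factor I genes that neurons and progenitors also express. The kinase Jak2 fell from 88.3 ± 3.1 to 30.4 ± 1.8 and the Notch ligand Dll1 from 18.3 ± 2.0 to 5.07 ± 0.60. Of the 12 radial glia markers 7 fell and 3 rose in Ctrl. Of 10 myelin genes tested in Ctrl 10 rose, with a median log2 change of 3.03. Of 12 microglial markers 7 rose and 0 fell (median 0.58), and of 12 neuronal markers 7 rose and 4 fell. Of 10 markers of oligodendrocyte precursors 4 rose and 2 fell. Of 14 vascular markers 4 rose and 5 fell, and of 12 meningeal markers 0 rose and 11 fell. All these counts are to be read against the same shares of all genes. The part of other cells in the members' changes was not tested.

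The next comparison asked whether prenatal stress had changed the astrocyte genes at P1. No member passed: limma called 0 of 33 at adjusted p below 0.05, as it called 0% of all 16711 genes tested, and edgeR and DESeq2 on recovered reads also called 0 of the 33. At an unadjusted p below 0.05, 1 member was higher and 0 were lower, where the shares of all genes were 4.58% and 2.09%. Ctrl and PNS did not overlap for 0 members and for 3.23% of all genes. The log2 difference was positive for 16 members and negative for 17, with a median of -0.01 beside -0.02 over all genes. The 95% interval of the difference lay within -1 to 1 for 30 members and within -0.5 to 0.5 for 17, and the median distance from the estimate to an end was 0.34. The 3 members with intervals reaching beyond 1 in either direction were S100b, Atp13a4 and Agt.

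**Figure D2:**
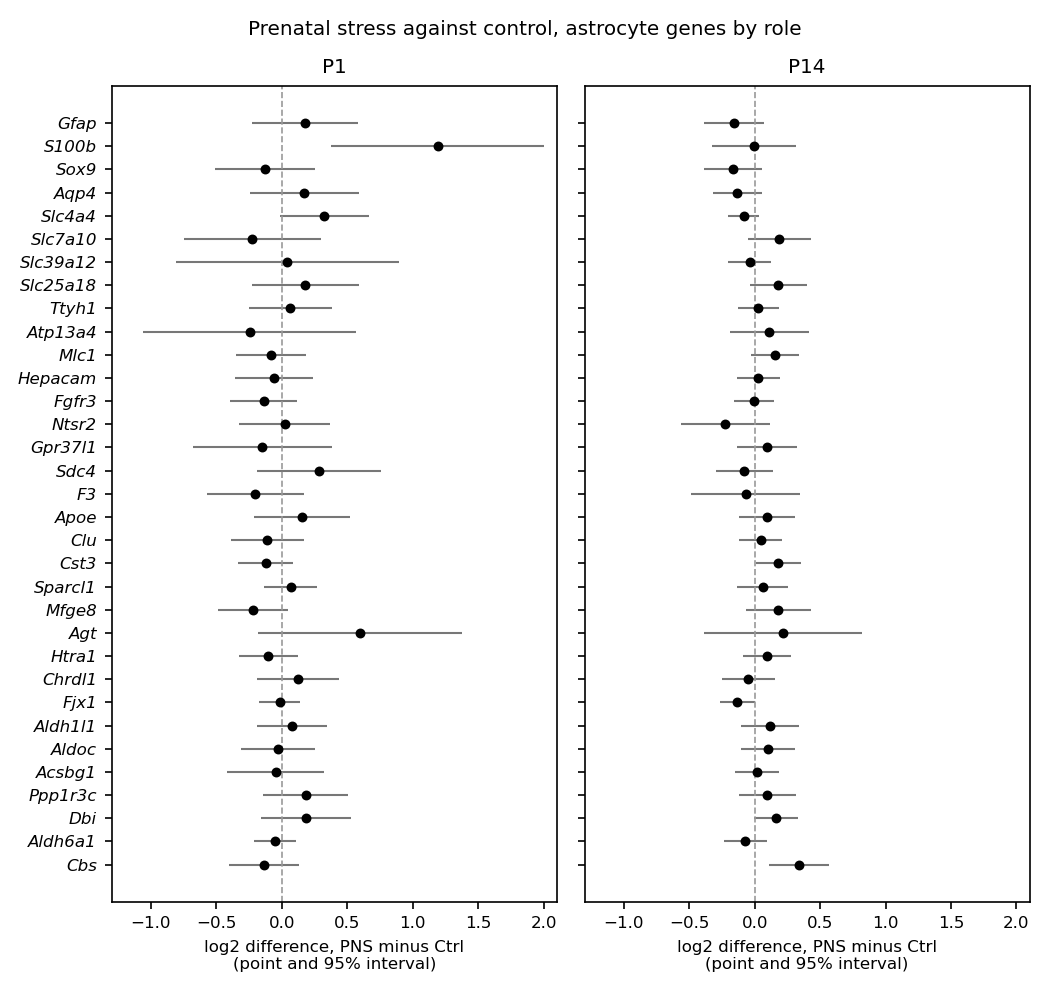
Difference PNS minus Ctrl on the log2(value + 1) scale for each of the 33 genes at P1 (left) and P14 (right), with points for the limma estimate and bars for its 95% interval, genes ordered by role. At P1 S100b stands out at 1.19 with a wide interval; at P14 the intervals are shorter and Cbs, at 0.34, lies farthest to the right.

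S100b had the largest difference at P1. The gene spans chr10:76253853-76261159 on the plus strand of GRCm38. Its normalized counts were 50.15, 52.9, 39.1 and 29.6 in Ctrl libraries 1 to 4 and 133, 157, 93.8 and 44.4 in PNS libraries 1 to 4. PNS libraries 1 to 3 were above every Ctrl library, and PNS library 4 was within the Ctrl range. The log2 difference was 1.19 ± 0.37 (SE, n = 4 and 4, 95% interval 0.38 to 2.003), which did not pass (unadjusted p = 0.0085, limma adjusted p = 0.67). DESeq2 on recovered reads gave 1.31 with an adjusted p of 0.071. Without PNS library 4 the limma difference was 1.56 and passed (limma adjusted p = 0.033), in a fit that called 123 of all 16702 genes, 120 of them higher. The 3 PNS libraries left are those with olfactory bulb scores of 1.14 to 1.92.

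Adjusted for the olfactory bulb score, the S100b difference was 0.40 (adjusted p = 0.9998), and without PNS libraries 2 and 3 together it was 0.86 (adjusted p = 0.9997). The markers of olfactory ensheathing cells, 9 of 10 of which were listed and none at 0 throughout a group, had scores of 1.07, 1.92, 1.69 and -1.44 in PNS libraries 1 to 4 and 0.18, -1.39, -1.15 and -0.89 in Ctrl. Their summed level spanned 18563 to 25542 in Ctrl and 20482 to 42414 in PNS. The sum includes Fabp7, which is also 1 of the radial glia markers, at 376 ± 63 CPM in Ctrl and 445 ± 73 in PNS (SD). All 9 log2 differences were positive, with a median of 0.89 and 0 calls by limma. Frzb stood at 167 ± 87 normalized counts in Ctrl and 1056 ± 800 in PNS. Myelin genes, of which 10 of 12 were listed and none was at 0 throughout a group, summed to 5165 to 5975 in Ctrl and 5061 to 12949 in PNS, and scored 0.46, 0.61, 0.43 and -0.34 in PNS libraries 1 to 4 against -0.04, -0.33, -0.41 and -0.39 in Ctrl. The part of ensheathing or myelinating glia in the S100b difference was not tested.

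**Figure D3:**
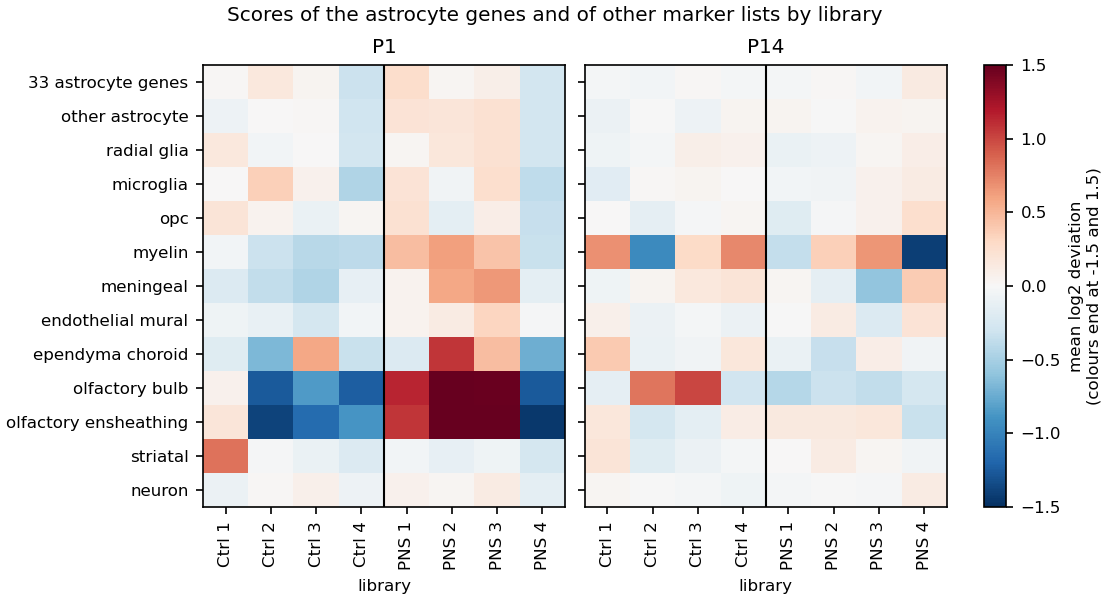
Score of each gene list in each library, as the mean log2 deviation of its genes from their mean over the 8 libraries of an age (colour, red above and blue below, colours ending at -1.5 and 1.5), P1 on the left and P14 on the right. The olfactory bulb and olfactory ensheathing rows are red in PNS libraries 1 to 3 at P1 and blue in PNS library 4 and Ctrl libraries 2 to 4, while the row of the 33 astrocyte genes stays pale.

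Slc4a4, the sodium bicarbonate cotransporter, had the next smallest p of the members higher in PNS. The gene lies at chr5:88886818-89239653 on the plus strand (GRCm38). It held 2456, 2846, 2624 and 2295 normalized counts in Ctrl and 3327, 3673, 3806 and 2222 in PNS, so that PNS libraries 1 to 3 were the 3 highest and PNS library 4 the lowest of the 8. The log2 difference was 0.32 ± 0.15 (SE, adjusted p = 0.75). Without PNS library 4 it was 0.50 and passed (limma adjusted p = 0.034), without PNS libraries 2 and 3 it was 0.09, and adjusted for the olfactory bulb score it was -0.01.

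Agt held 151, 52.0, 88.95 and 59.2 normalized counts in Ctrl and 163, 167, 79.65 and 102 in PNS, a log2 difference of 0.60 ± 0.35 (SE, adjusted p = 0.78). Each group spanned a wide range and the groups overlapped. The difference was 0.14 when adjusted for the olfactory bulb score and 0.68 without PNS libraries 2 and 3. Sdc4 held 207, 178, 199 and 173 in Ctrl and 222, 285, 305 and 145 in PNS, with PNS library 4 the lowest of the 8 (log2 0.28 ± 0.21, SE, adjusted p = 0.81). Its difference was -0.08 without PNS libraries 2 and 3 and -0.21 when adjusted for the olfactory bulb score.

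The members with the smallest p in the other direction differed little from Ctrl. Mfge8 held 8425, 8301, 7593 and 7069 normalized counts in Ctrl and 8626, 6039, 6879.95 and 5661 in PNS, a log2 difference of -0.22 ± 0.12 (SE, adjusted p = 0.78). Its highest library and its 3 lowest were all PNS. The difference was -0.36 when adjusted for the olfactory bulb score, -0.14 without PNS library 4 and -0.16 without PNS libraries 2 and 3.

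Cst3 held 20170.3, 21305, 18488 and 16916 normalized counts in Ctrl and 19358, 16210.3, 19289 and 15729.5 in PNS (log2 -0.12 ± 0.10, SE, adjusted p = 0.82). Fgfr3 held 842, 937, 817 and 675 in Ctrl and 832, 711, 773 and 646 in PNS (log2 -0.14 ± 0.11, adjusted p = 0.82). F3 held 279.7, 268, 276 and 200.2 in Ctrl and 269, 248, 174 and 202 in PNS (log2 -0.20 ± 0.17, adjusted p = 0.82). The groups overlapped for all 3. Without PNS libraries 2 and 3 the log2 differences were -0.13 for Cst3, -0.15 for Fgfr3 and -0.12 for F3.

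**Figure D4:**
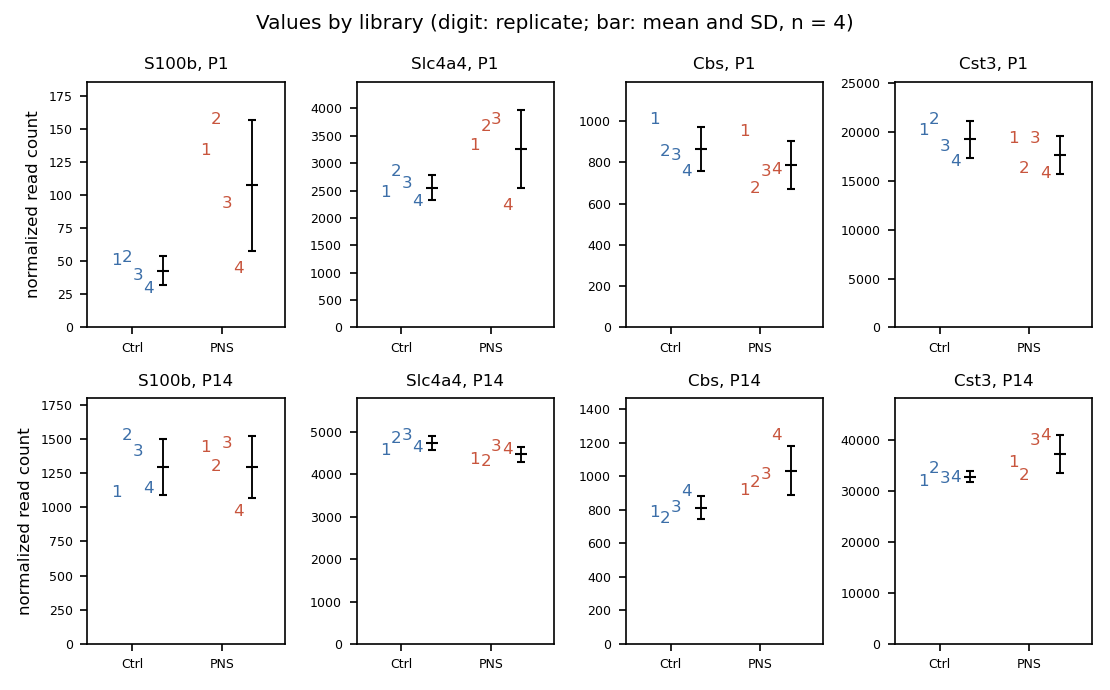
Normalized read counts of S100b, Slc4a4, Cbs and Cst3 at P1 (top) and P14 (bottom), each library drawn as its replicate number, Ctrl in blue and PNS in red, with bars for the group mean and SD (n = 4); axes start at 0 and differ between panels. For S100b and Slc4a4 at P1 PNS libraries 1 to 3 lie above Ctrl and PNS library 4 does not, and for Cbs at P14 all PNS libraries lie above all Ctrl libraries.

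Library 4 of either condition was low for most astrocyte genes at P1, whatever the condition. Ctrl library 4 was among the lowest 2 of 8 for 24 of 33 members and PNS library 4 for 25. PNS library 4 was the lowest of all for 17. The mean log2 deviation of the 33 genes was -0.32 in Ctrl library 4 and -0.28 in PNS library 4, and between 0.01 and 0.27 in the other 6 libraries. The 28 other astrocyte markers listed at P1 had scores of -0.29 and -0.28 in the same 2 libraries, microglial markers -0.45 and -0.38, and neuronal markers -0.07 and -0.15. Radial glia markers scored -0.27 in both. Markers of oligodendrocyte precursors scored 0.03 in Ctrl library 4 and -0.35 in PNS library 4. The part of these differences in the members' spread was not tested. The coefficient of variation over the 4 libraries had a median of 14.7% over the members in Ctrl at P1 and 18.3% in PNS, beside 10.2% and 10.4% over all genes.

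**Figure D5:**
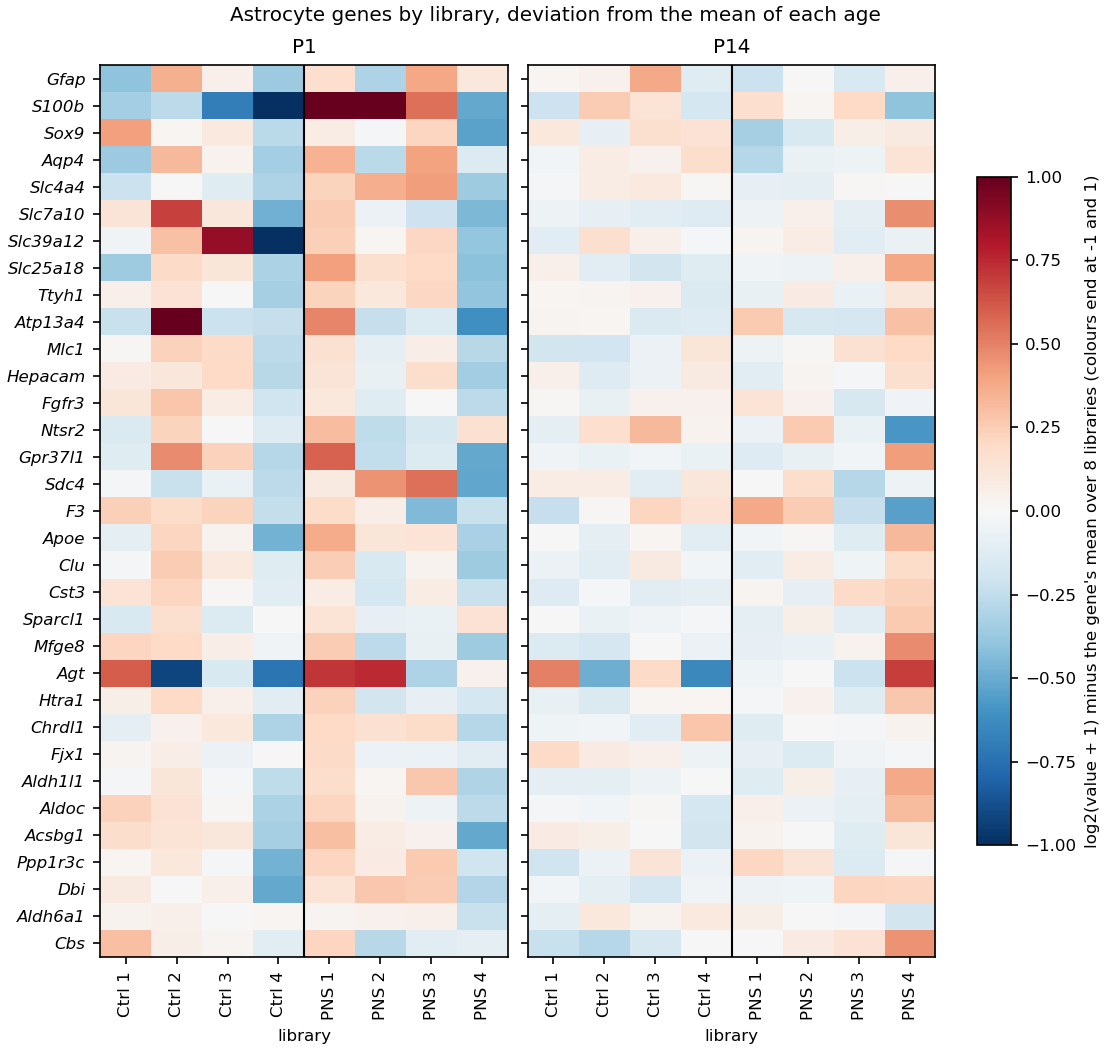
Each of the 33 genes in each library as the deviation of log2(value + 1) from the gene's mean over the 8 libraries of its age (colour, red above and blue below, colours ending at -1 and 1), P1 on the left and P14 on the right. At P1 the columns of Ctrl library 4 and PNS library 4 are blue for most genes; at P14 most cells are pale, and PNS library 4 is red for many genes and blue for Ntsr2, F3 and S100b.

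The same question was then asked at P14, where the astrocyte genes varied less. No member passed: limma called 0 of 33 at adjusted p below 0.05 and 0% of all 15873 genes tested, and edgeR and DESeq2 called 0 of the 33. At an unadjusted p below 0.05, 2 members were higher (Cbs and Cst3) and 0 were lower, where the shares of all genes were 1.61% and 1.4%. Ctrl and PNS did not overlap for 1 member, Cbs, and for 2.12% of all genes. The log2 difference was positive for 20 (13 were negative), with a median of 0.05 beside 0.00 over all genes. The 95% intervals of all 33 lay within -1 to 1, and those of 30 within -0.5 to 0.5, the others being Ntsr2, Agt and Cbs. The median distance from the estimate to an end was 0.20. The coefficient of variation had a median of 6.48% over the members in Ctrl and 11.9% in PNS, beside 8.09% and 11.8% over all genes.

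Cbs (chr17:31608894-31637238, minus strand, GRCm38) held 783, 748, 815 and 909 normalized counts in Ctrl and 914, 965, 1011 and 1244 in PNS. The groups did not overlap, but the highest Ctrl library (909.42) and the lowest PNS library (914.29) were nearly equal. The log2 difference was 0.34 ± 0.10 (SE, 95% interval 0.11 to 0.56, unadjusted p = 0.0074, limma adjusted p = 0.99). Cst3 held 31945, 34408.5, 32482 and 32614 in Ctrl and 35595, 33036, 39863 and 40937 in PNS, a difference of 0.18 ± 0.08 (log2, SE, adjusted p = 0.99). PNS library 2 was within the Ctrl range.

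Dbi held 2150.3, 2051, 1948 and 2135 normalized counts in Ctrl and 2118, 2129, 2542 and 2526 in PNS (log2 0.16 ± 0.08, SE, adjusted p = 0.99), with PNS libraries 3 and 4 above the rest. Mlc1 held 4615, 4581, 5020.1 and 5688 in Ctrl and 5056, 5261, 5797 and 5994 in PNS (log2 0.15 ± 0.08, adjusted p = 0.99). For both genes PNS libraries 1 and 2 were within the Ctrl range.

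On the lower side, Fjx1 held 6203, 5739.9, 5620.4 and 5247 normalized counts in Ctrl and 5143, 4957, 5299.7 and 5370.0 in PNS (log2 -0.13 ± 0.06, SE, adjusted p = 0.99). Sox9 held 928, 819, 967 and 957 in Ctrl and 689, 779, 899 and 922 in PNS (log2 -0.17 ± 0.10). Slc4a4 held 4565, 4838, 4915 and 4644 in Ctrl and 4341, 4294, 4649 and 4594 in PNS (log2 -0.09 ± 0.05). Aqp4 held 4269, 4579, 4480.5 and 4919 in Ctrl and 3579, 4161, 4193 and 4777 in PNS (log2 -0.13 ± 0.08). The groups overlapped for all 4, and each had a limma adjusted p of 0.99.

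PNS library 4 stood apart among the P14 libraries. It was the highest of 8 for 18 of 33 members, and its mean log2 deviation over the members was 0.13, where the other 7 libraries were between -0.04 and 0.02. It was also the lowest for 4 members. Its myelin score was -1.41, and Ctrl library 2 was at -0.95, where the other 6 libraries were between -0.36 and 0.73. All 12 myelin markers were listed at P14 with none at 0 throughout a group, and summed to 20482 to 60039 in Ctrl and 15676 to 56792 in PNS. Their part in the members' values was not tested. Without PNS library 4 the Cbs difference was 0.25 and the median over the 33 was 0.00.

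The last comparison asked whether the effect of prenatal stress on the astrocyte genes differed between the ages. No member passed: limma in a fit of all 16 libraries called 0 of 33 and 0% of 15502 genes, and edgeR and DESeq2 on recovered reads called 0 of the 33. At an unadjusted p below 0.05 there were 5 members, beside 5.89% of all genes. S100b had the largest difference, with an effect of 1.19 at P1 and -0.01 at P14 and a change of -1.19 ± 0.42 (log2, SE, adjusted p = 0.80). Cbs went from -0.14 to 0.34, a change of 0.48 ± 0.16 (adjusted p = 0.80), and Cst3 from -0.12 to 0.18, a change of 0.30 ± 0.13 (adjusted p = 0.82). The other 2 were Slc4a4, at -0.41, and Mfge8, at 0.40. Without PNS P1 library 4, S100b (-1.56, limma adjusted p = 0.030) and Slc4a4 passed. That fit called 65 of all 15502 genes, 0 higher and 65 lower, where the fit of all 16 libraries called 0. The PNS libraries left at P1 had olfactory bulb scores of 1.14, 1.92 and 1.48. The olfactory bulb genes differed in opposite directions at the 2 ages, with a median log2 difference of 1.56 at P1 and -0.44 at P14. In the fit of all 16 libraries 12 of them were tested for the difference between ages. Of these 9 were negative and 3 positive, with a median of -2.26 and 0 calls by limma. The part of the olfactory bulb genes in the members' values of this contrast was not tested.

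Related lists outside the 33 were read for prenatal stress as well. At P1 limma called 0 of 28 other astrocyte markers, 0 of 26 genes of astrocyte formation and 0 of 12 radial glia markers, and the same held at P14 for the 28, 25 and 12 tested there. The 3 smallest p of the other astrocyte markers at P1 were those of Id3, a transcriptional regulator, and of the astrocyte connexins Gjb6 and Gja1. Id3 stood at 2314 ± 259 normalized counts in Ctrl and 2949.95 ± 49.4 in PNS (log2 0.36, adjusted p = 0.67). Gjb6 stood at 423 ± 111 normalized counts in Ctrl and 919 ± 325 in PNS (log2 1.08, adjusted p = 0.67) and Gja1 at 3727 ± 534 and 6129 ± 1976 (log2 0.67, adjusted p = 0.67). Both connexins are also made by meningeal cells, whose 12 markers were all positive in PNS at P1 with a median of 0.56. The meningeal markers summed to 34002 to 41620.2 in Ctrl and 40605 to 70778 in PNS with none at 0, and their part in these values was not tested. The fit without PNS libraries 2 and 3 also covered Id3, Gjb6 and Gja1, but its values for them are not given here.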

How the data were processed

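The study measured poly(A) RNA in 16 libraries of mouse medial prefrontal cortex, grouped by condition and age from the sample titles. Per the submitters' processing notes, cutadapt, STAR 2.7.3a, HTSeq and DESeq2 were used with build GRCm38; no source used here gives the annotation release or the strand. The deposited signal values are normalized gene counts, 1 table an age, scaled separately. Between 99.97% and 100% of the positive values in each library were whole multiples of the value of 1 read within 0.0051, so whole reads were recovered. Of 19748 identifiers at P1 and 19014 at P14, 19720 and 18987 matched GRCm38.

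PNS was compared with Ctrl within an age by limma 3.58.1 (R 4.3.3) on log2(value + 1), keeping genes whose mean value reached 10, adjusted by Benjamini-Hochberg over all genes, with 0.05 as the threshold. Such fold changes understate the change of low genes. The difference between ages was the contrast of both effects in a fit of 16 libraries. P14 was compared with P1 by the edgeR 4.0.16 quasi-likelihood test with TMM on recovered reads. All 33 members passed the filters on low values in every comparison. Alternatives were pseudocounts of 0.5 and 5, no filter, edgeR and DESeq2 1.42.0 on recovered reads, covariates, a replicate block and leaving out each library; the olfactory bulb covariate and the joint removal of PNS libraries 2 and 3 for single genes at P1 were added after seeing the data. Lengths are GRCm38 exon unions. The scripts were tested on simulated data.

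Members, gene lists and tests were chosen with earlier results of these data known. Values per library are given for the 4 members with the smallest p in each direction at each age, for 3 in the difference between ages, and for the 4 largest rises and Aqp4, Gfap, Aldh1l1, Aldoc and Sox9 in development; Mfge8 in development was added after its values were seen. Replicate numbers were not treated as pairs in the main fits: correlations of same-numbered deviations were -0.18 to 0.28 at P1 and -0.16 to 0.03 at P14. The highest at P1 was that of the libraries numbered 4, and differently numbered P1 libraries gave -0.33 to 0.36. With 4 pairs an age these correlations cannot exclude a shared litter or batch.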

Additional observations from a re-analysis of the deposited data

Results flagged for a closer look

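In 8 of 136 groups of 4 libraries (5.88%) 1 library lay far from the other 3, by Dixon's test of the gap against the group's range; chance flags about 1 in 20 groups. At P1 Atp13a4 was at 65.0 normalized counts in Ctrl library 2, where the others were between 23.97 and 24.26. Ctrl library 4 at P1 was low for F3 (200.21, others from 268.36 to 279.69) and for Acsbg1 (1373.24, others from 1866.63 to 1947.2). PNS library 4 at P1 was low for Chrdl1 (271.75, others from 367.49 to 381.16) and for Aldh6a1 (1256.53, others from 1489.74 to 1513.34). PNS library 1 at P1 was high for Fjx1 (7524.74, others from 6115.46 to 6323.25). At P14 Ttyh1 was low in Ctrl library 4 (21529.4, others from 24224.5 to 24509.4), and Gpr37l1 was high in PNS library 4 (7127.28, others from 4893.38 to 5229.34). Of the 8 values 4 came from library 4 of either condition at P1, the libraries that were low for most of the 33 genes.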

How the results depend on the processing

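The rise of the members with age kept 25 to 29 calls in each condition under every alternative run, and 0 members fell except with limma on the separately scaled deposited values (6 lower in Ctrl and 6 in PNS) and without single libraries in PNS (0 to 1, Sox9). On the deposited values Gfap changed by -0.17 in Ctrl and -0.51 in PNS, and the median of all genes by -0.63 and -0.64. Leaving out single libraries moved the Gfap change in PNS between -0.048 and 0.18. For PNS against Ctrl, leaving out single libraries gave 0 to 2 called members at P1 and 0 to 2 in the difference between ages, and 0 at P14. Adjusted for the olfactory bulb score, a covariate added for single genes after seeing the data, Slc4a4 at P1 was -0.0053 and Sdc4 -0.21, and without PNS libraries 2 and 3 Sdc4 was -0.076. Over all genes DESeq2 called 79 at P1, 5 at P14 and 11 in the difference between ages, where limma called 0, and limma called 123 at P1 without PNS library 4, 5 at P14 without Ctrl library 4 and 65 in the difference between ages without PNS P1 library 4. With replicate number as a block 0 members were called at either age, S100b at P1 had an adjusted p of 0.50, and 29 members rose in each condition; the block changed no call among the members. The cause of these changes was not tested. With 4 libraries a group the 95% intervals set the precision of each difference, and single members near 20 reads at P1 carry large counting error.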

Other observations

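Of 2 lists outside the 33, genes of astrocyte reactivity fell more often than they rose with age. Those of astrocyte synapse control went in mixed directions. Of 25 reactivity genes tested in Ctrl 13 fell and 3 rose, with a median log2 change of -0.53, where over all genes 36.4% were lower, 34.8% were higher and the median was -0.04. The intermediate filament gene Vim fell from 159.8 ± 13.1 to 42.7 ± 4.7 CPM and Emp1, a membrane protein, from 13.3 ± 1.1 to 2.48 ± 0.30. The protease inhibitor gene Serpina3n rose from 3.90 ± 1.16 to 19.4 ± 0.8. In PNS 15 of the 25 fell and 3 rose. At P1 prenatal stress gave 0 calls among 24 reactivity genes (limma). Of their log2 differences 16 were positive and 8 negative, with a median of 0.18. At P14, where 22 were tested, 6 were positive and 16 negative, with a median of -0.08 and 0 calls. At P1 the list scored 0.03, 0.24, 0.29 and -0.21 in PNS libraries 1 to 4, and -0.06, -0.08, -0.07 and -0.14 in Ctrl. The smallest p at P1 was that of the sphingosine kinase Sphk1 (log2 1.13, limma adjusted p = 0.67). It stood at 277 ± 76 normalized counts in Ctrl and 606 ± 183 in PNS. Fits without single libraries covered Sphk1, but their values for it are not given here.

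Of 13 synapse factors 5 rose and 2 fell in Ctrl, and the share that rose is near the 34.8% of all genes. Thbs1, a thrombospondin that promotes synapse formation in early life, fell from 28.5 ± 1.1 to 4.68 ± 0.77 CPM. Il33, a cytokine that directs microglia to engulf synapses, rose from 0.302 ± 0.066 to 7.14 ± 0.75 and Mertk, a phagocytic receptor, from 4.80 ± 1.14 to 24.2 ± 1.8. The matrix proteoglycan gene Bcan rose from 125 ± 12 to 244 ± 9. In PNS the same 4 genes had log2 changes of -2.41, 4.21, 2.11 and 0.97, and prenatal stress gave 0 calls among the 13 at either age.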
